A study of Homo sapiens with 12 samples.

Results

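The genes described here are 10 ligands and receptors of the tumour necrosis factor (TNF) superfamily: the ligands TNFSF15, TNFSF4 and TNFSF10 and the receptors TNFRSF10A, TNFRSF10B, TNFRSF10C, TNFRSF10D, TNFRSF11B, TNFRSF1B and TNFRSF9. They were taken by gene symbol, and all 10 were found among the 27106 genes of the table. All 10 also stood among the 13924 genes tested, a filter that asked for 10 or more normalized counts in 2 or more libraries. TNFSF10 reached that level in 2 libraries, both of 1 group, and TNFRSF9 in 3 libraries, so their tests lend no support to a difference.

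The cells were IMR90 hTERT, a human lung fibroblast line kept dividing by telomerase, and all carried RasERT2, an oncogenic Ras that tamoxifen switches on. Control cells expressed a scramble hairpin (shScr, labelled WT) and the others a hairpin against the interleukin-1 receptor (shIL1R, labelled IL1R KD). Doxycycline at 0.5 ug/ml, which induces the hairpins, was given to all, followed by ethanol as the control or tamoxifen at 200 nM. Poly(A) RNA was sequenced from growing cells at day 0, from cells entering senescence at day 4 and from senescent cells at day 10 of Ras induction. Each of the 6 groups of genotype and day held 2 libraries, 12 in all. Per the series' design text, 2 separate shRNAs targeted the receptor. The labels leave unsaid whether the numbers of the shIL1R libraries tell these apart or whether the libraries came from separate cultures. Adjusted p-values therefore measure the spread between these libraries, which may be technical, in 1 cell line.

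TNF superfamily ligands are mostly trimeric membrane or secreted proteins that cluster their receptors on a target cell. Receptors with a cytoplasmic death domain can start apoptosis through FADD and caspase-8, while others recruit TRAF proteins and switch on NF-kB. Decoy receptors bind a ligand without passing on a full death signal. In oncogene-induced senescence, fibroblasts secrete cytokines, chemokines and proteases (the senescence-associated secretory phenotype), and interleukin-1 signalling through NF-kB is known to drive much of that output.

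The libraries held 24140324 to 30127727 reads assigned to genes, and 1 read was worth 0.835 to 1.20 normalized counts. IL1R1, the hairpin's target, was lower in every shIL1R library than in any shScr library, with 86.4 to 731 against 1240 to 1580 normalized counts. The fitted difference was called at day 4 (log2 -3.27, limma adjusted p = 0.0205) and at day 10 (-2.28, adjusted p = 0.0102) but not at day 0 (-1.54, adjusted p = 0.281). The day 4 call was lost without any 1 of the 4 shScr libraries of days 0 and 4 (adjusted p up to 0.144), and at day 10 the adjusted p was 0.0696 once shScr replicate 2 was left out. All 8 fibroblast markers were above 3 reads in every library, whereas 0 of 6 epithelial and 1 of 8 leukocyte markers were. Of 6 smooth muscle and neural markers, 4 were. Mean COL3A1 went from 14669 at day 0 to 6105 at day 10 in shScr cells, whereas VIM went from 184350 to 193425. COL1A1 stood at 65668 in 1 day 10 library of shIL1R and at 159731 in the other. Of 7 endothelial markers, 2 were above 3 reads in every library and 1 was at 0 throughout. Several endothelial markers moved with the days in both genotypes. Mean TIE1 went from 32.4 at day 0 to 186 at day 4 and 471 normalized counts at day 10 in shScr cells and from 21.2 to 142 and 262 in shIL1R cells. KDR went from 2.21 to 16.6 and 74.2 in shScr and from 8.70 to 47.6 and 159 in shIL1R, and VWF from 6.76 to 19.0 and 57.2 and from 5.74 to 15.9 and 54.6. CDH5 was the marker at 0, and TEK went down, from 1709 to 1115 by day 10 in shScr and from 2866 to 1622 in shIL1R. The part of these markers in the day changes below was not tested. The day 10 replicate 2 of shIL1R stood apart on the first principal component (68.9% of the variance), at 45.9 against 77.2 for its partner and 89.2 and 90.5 for shScr. HRAS reads were fewer in shIL1R at day 10, at 37518 and 25280 normalized counts against 51790 and 50789 (log2 -0.74, adjusted p = 0.0257). That call was lost without any 1 of 3 day 10 libraries, and the difference was -0.45 without replicate 2 of shIL1R. Its part in the genotype results below was not tested. RNA45S5, a ribosomal precursor, took 3.41% of reads in the day 4 replicate 2 of shScr and 1.77% to 1.81% in the other day 4 libraries. In whole-culture RNA, fewer cells expressing a gene and less RNA per cell cannot be told apart.

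Of the ligands, TNFSF15 rose by far the most of the 10 genes. TNFSF15 (TL1A) is a cytokine that acts on T cells through the death-domain receptor TNFRSF25 and is also known to restrain endothelial growth. In shScr cells it went from 40.4 and 37.6 normalized counts at day 0 by day 4 to 3185 and 2429, and by day 10 to 14229 and 17970. In shIL1R cells it went from 79.9 and 88.7 to 832 and 627 and then to 3191 and 1333. The libraries of the 3 days did not overlap in either genotype. The mean rose 72.0-fold by day 4 and 413-fold by day 10 in shScr cells, and 8.66-fold and 26.8-fold in shIL1R cells. On the log2(normalized count + 1) scale, on which all fitted changes are given with their standard error, the shScr rise was 6.12 ± 0.32 by day 4 (limma adjusted p = 7.55e-07) and 8.64 ± 0.32 by day 10 (adjusted p = 9.20e-09). The shIL1R rise was 3.09 ± 0.32 (adjusted p = 4.66e-05) and 4.60 ± 0.32 (adjusted p = 5.76e-07). From day 4 to day 10 the shIL1R rise was 1.51 ± 0.32 (adjusted p = 0.00400), and it was 0.88 without replicate 1 of day 10. Fitted with limma on the compared groups alone, this rise lost its call (adjusted p = 0.0502).

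TNFSF4 (OX40L), a membrane ligand that costimulates T cells, moved the opposite way in shScr cells. Its normalized counts were 320 and 315 at day 0, then 159 and 185, then 90.9 and 98.2. Each step lay below the one before, and the fall by day 10 was 3.36-fold (log2 -1.74 ± 0.26, adjusted p = 0.000144). In shIL1R cells the values were 259 and 273, then 209 and 338, then 139 and 244, so that day 4 straddled day 0. The change by day 10 was -0.53 ± 0.26 (adjusted p = 0.102, 95% interval -1.10 to 0.05), which did not pass the threshold. The shScr change by day 4 (-0.89, adjusted p = 0.0200) was lost without either day 0 library or without replicate 1 of day 4, at an adjusted p of up to 0.115.

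TNFSF10 (TRAIL), the ligand of TNFRSF10A and TNFRSF10B, was near the detection limit throughout. Its normalized counts in shScr cells were 5.51 and 2.50, then 0.951 and 2.84, then 7.08 and 4.05. In shIL1R cells they were 5.39 and 5.16, then 1.95 and 3.32, then 12.0 and 15.8. The day 10 shIL1R libraries were the highest, and every value corresponds to 14 reads or fewer. The ligand stood at 0.0150% to 0.231% of the TNFRSF10B count in the same library.

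The sequences just upstream of TNFSF15 and TNFSF4 are shown because these ligands moved in opposite directions. RefSeq promoter entries (GRCh38.p14) matched 5 of the 10 genes: TNFSF15, TNFSF4, TNFSF10, TNFRSF1B and TNFRSF9. Each run gives the 250 bases before the listed start, 5′ to 3′ on the gene's strand; TNFSF15 is at chr9:114792531-114792780 and TNFSF4 at chr1:173205533-173205782, both on the minus strand. The build differs from the hg19 build of the counts, so no position was carried over. Capitals mark the AP-1 motif TGANTCA, which was searched on both strands.
TNFSF15: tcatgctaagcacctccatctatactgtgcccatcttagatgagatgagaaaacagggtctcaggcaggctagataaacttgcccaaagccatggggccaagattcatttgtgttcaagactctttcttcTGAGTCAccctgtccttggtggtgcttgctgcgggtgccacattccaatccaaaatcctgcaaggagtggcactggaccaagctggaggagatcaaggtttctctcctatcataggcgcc
TNFSF4: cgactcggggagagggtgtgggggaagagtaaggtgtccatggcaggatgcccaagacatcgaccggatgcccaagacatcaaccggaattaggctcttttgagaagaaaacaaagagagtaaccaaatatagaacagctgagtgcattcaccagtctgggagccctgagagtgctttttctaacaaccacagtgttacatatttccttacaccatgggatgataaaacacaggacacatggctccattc
The TNFSF15 window holds TGAGTCA, 120 to 114 bases before the listed start, and the TNFSF4 window holds no AP-1 match. Of 35116 promoter windows of this length, 6.57% held an AP-1 match. The listed starts lie 13509 bases (TNFSF15) and 245201 bases (TNFSF4) inside the outermost start of the same gene in RefSeq, so other transcripts begin elsewhere. A match describes the letters only.

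**Figure D1:**
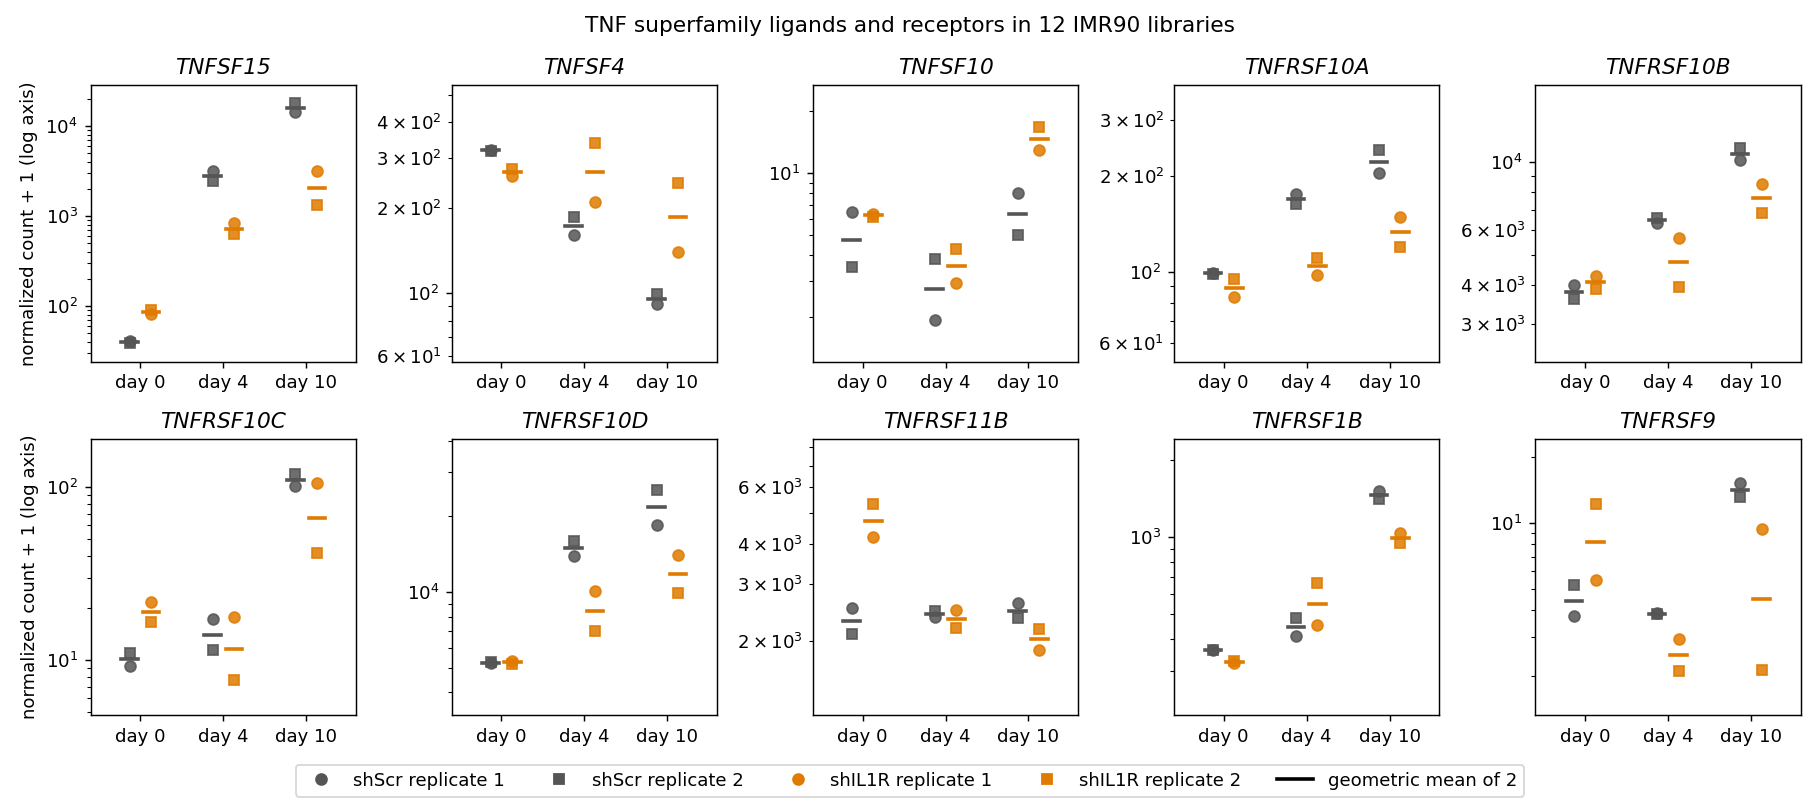
Normalized counts (log axis) of the 10 genes in each of the 12 libraries by day of Ras induction, with shScr and shIL1R libraries as separate points. TNFSF15 climbs from 40.4 and 37.6 in shScr cells at day 0 to 14229 and 17970 in shScr cells at day 10, while TNFRSF11B in shIL1R cells starts high, at 4190 and 5312, and comes down.

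The 4 TRAIL receptors were all higher in senescent than in growing shScr cells. TNFRSF10A and TNFRSF10B (DR4 and DR5) carry a death domain, TNFRSF10C (DcR1) is a lipid-anchored decoy without a cytoplasmic tail, and TNFRSF10D (DcR2) is a decoy with a truncated death domain. The 4 genes are close relatives that lie next to each other in the genome, and how reads shared between them were counted is not given in the sources used here, so the split between them is uncertain. DcR2 is also widely used as a marker of senescent cells.

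TNFRSF10D was the most abundant of them. Its shScr counts were 5232 and 5266 at day 0, then 13954 and 15923, then 18485 and 25475, a 4.19-fold rise of the mean by day 10 (log2 2.05 ± 0.20, adjusted p = 5.40e-06). Most of that rise, 1.51 ± 0.20 (adjusted p = 0.000194), was present by day 4. In shIL1R cells the counts were 5337 and 5180, then 10067 and 7019, then 14055 and 9913. The rise was 0.68 ± 0.20 by day 4 (adjusted p = 0.0194) and 1.17 ± 0.20 by day 10 (adjusted p = 0.000422). The day 4 value dropped to 0.42 (adjusted p = 0.172) without replicate 1 of that day and also lost its call without either day 0 library.

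TNFRSF10B followed with a smaller rise. Its shScr counts were 4009 and 3614, then 6359 and 6598, then 10090 and 11054, and its shIL1R counts were 4279 and 3889, then 5662 and 3952, then 8476 and 6836. The shScr groups did not overlap, and the changes were 0.77 ± 0.15 by day 4 (adjusted p = 0.00252) and 1.47 ± 0.15 by day 10 (adjusted p = 9.20e-06). In shIL1R cells day 4 overlapped day 0 (0.21 ± 0.15, adjusted p = 0.291), and the day 10 rise was 0.90 ± 0.15 (adjusted p = 0.000418).

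TNFRSF10A, the second death receptor, was found at far fewer counts. Its shScr libraries held 98.3 and 97.6, then 174 and 162, then 203 and 240 normalized counts. Its shIL1R libraries held 82.6 and 93.8, then 96.7 and 110, then 147 and 119. It rose 2.26-fold by day 10 in shScr cells (log2 1.16 ± 0.17, adjusted p = 0.000123) and 1.51-fold in shIL1R cells (0.58 ± 0.17, adjusted p = 0.0122). The shIL1R rise lost its call without replicate 1 of day 0 (adjusted p = 0.0841) or replicate 1 of day 10 (0.0809).

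TNFRSF10C changed late. Its shScr counts were 8.27 and 10.0 in growing cells, then 16.2 and 10.4, then 100 and 118. The shIL1R counts were 20.7 and 15.5, then 16.6 and 6.64, then 104 and 40.6. Day 4 did not differ from day 0 beyond the spread in either genotype (adjusted p = 0.475 in shScr and 0.271 in shIL1R). By day 10 the mean stood 12.0-fold higher in shScr cells (log2 3.44 ± 0.48, adjusted p = 8.84e-05) and 4.01-fold higher in shIL1R cells (1.81 ± 0.48, adjusted p = 0.00735). The shIL1R value was 1.14 (adjusted p = 0.0697) without replicate 1 of day 10 and lost its call without replicate 2 of day 0 (0.0514).

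The proportion of the decoy TNFRSF10D to the death receptor TNFRSF10B, both on the count scale of the same library, shifted with the day. It was 1.31 and 1.46 in growing shScr cells, then 2.19 and 2.41, then 1.83 and 2.30. In shIL1R cells it was 1.25 and 1.33, then 1.78 and 1.78, then 1.66 and 1.45. Both genotypes were lowest at day 0 and highest at day 4 by mean, and the shIL1R libraries lay below the shScr libraries on days 4 and 10. These ratios are given without a test.

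**Figure D2:**
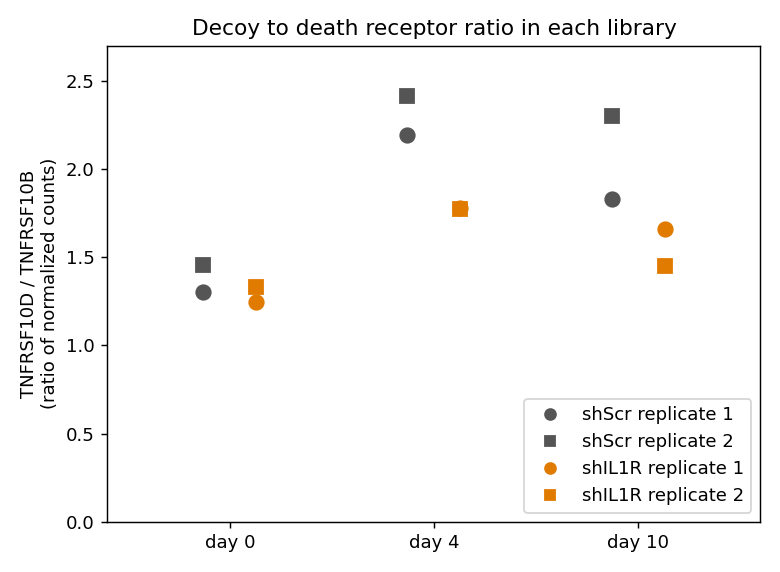
Ratio of TNFRSF10D to TNFRSF10B normalized counts in each library by day, with shScr and shIL1R libraries as separate points. Day 0 libraries lie between 1.25 and 1.46, and the day 4 shScr libraries reach 2.19 and 2.41.

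TNFRSF11B (osteoprotegerin), a secreted decoy that binds both RANKL (TNFSF11) and TRAIL, behaved unlike the cell-surface decoys. In shScr cells it kept a similar level on all days, with 2529 and 2104, then 2368 and 2467, then 2616 and 2347 normalized counts. The change by day 10 was 0.10 ± 0.13 (adjusted p = 0.517, 95% interval -0.19 to 0.40). In shIL1R cells it stood at 4190 and 5312, then 2493 and 2182, then 1874 and 2173. That was a fall by 1.02 ± 0.13 by day 4 (adjusted p = 0.000222) and by 1.22 ± 0.13 by day 10 (adjusted p = 1.58e-05), so the shIL1R libraries were above shScr at day 0 and near it afterwards.

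TNFRSF1B (TNFR2), a TRAF-binding receptor for TNF without a death domain, rose late in shScr cells. Its counts were 361.05 and 361.34, then 411 and 480, then 1518 and 1409. The 4.05-fold rise by day 10 (2.01 ± 0.16, adjusted p = 9.09e-07) followed a change of 0.30 ± 0.16 by day 4 that did not pass the threshold (adjusted p = 0.155). In shIL1R cells the counts were 321 and 328, then 453 and 659, then 1037 and 948, and both steps were called, at 0.75 ± 0.16 by day 4 (adjusted p = 0.00311) and 1.61 ± 0.16 by day 10 (adjusted p = 6.28e-06). The day 4 value was 0.48 without replicate 2 of that day.

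TNFRSF9 (4-1BB), a costimulatory receptor known from activated T cells, was read 1 to 13 times per library. Its shScr counts were 2.76 and 4.17, then 2.85 and 2.84, then 14.2 and 12.2. Its shIL1R counts were 4.49 and 11.2, then 1.95 and 1.11, then 8.39 and 1.13. By normalized counts the day 10 shScr libraries were the highest of all 12, with 12 reads each. Replicate 2 of shIL1R day 0 held 13 reads, so this order rests on the scaling of few reads. The shScr change by day 10 was 1.68 ± 0.68 and missed the threshold (adjusted p = 0.05004). Leukocyte markers also summed higher in shScr cells at day 10, at 144 to 186 normalized counts against 16.6 to 40.1 in all day 0 and day 4 libraries and 31.6 to 69.5 in shIL1R cells at day 10, with PTPRC at 3 reads or fewer. Their part in the TNFRSF9 values was not tested.

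The promoter windows of the 2 remaining receptors with an entry are also shown. TNFRSF1B rose in both genotypes, whereas the few reads of TNFRSF9 lend no support to a difference. TNFRSF1B is at chr1:12166741-12166990 on the plus strand and TNFRSF9 at chr1:7940840-7941089 on the minus strand. Capitals mark AP-1 and NF-kB consensus matches.
TNFRSF1B: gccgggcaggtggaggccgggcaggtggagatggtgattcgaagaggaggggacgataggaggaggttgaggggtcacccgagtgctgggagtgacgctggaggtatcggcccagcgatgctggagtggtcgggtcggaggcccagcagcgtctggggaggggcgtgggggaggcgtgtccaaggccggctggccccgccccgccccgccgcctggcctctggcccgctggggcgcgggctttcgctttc
TNFRSF9: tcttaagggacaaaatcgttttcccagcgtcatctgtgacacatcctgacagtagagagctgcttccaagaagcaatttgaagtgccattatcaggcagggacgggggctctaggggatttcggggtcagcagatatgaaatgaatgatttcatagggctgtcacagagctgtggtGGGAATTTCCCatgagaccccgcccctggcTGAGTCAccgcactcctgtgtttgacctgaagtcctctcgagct
The TNFRSF9 window holds an NF-kB consensus match on each strand, GGGAATTTCC and the overlapping GGAATTTCCC, and TGAGTCA 44 to 38 bases before the start. The TNFRSF1B window holds neither motif. Of all windows, 5.21% held the NF-kB consensus. Among the 5 matched genes, 2 windows held AP-1 and 1 held NF-kB. The TNFSF10 window holds a TATAAA match, as did 10.7% of all windows.

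By day, counted over the 10 genes, 4 were called higher and 1 lower in shScr cells at day 4 against day 0, where 38.3% of all genes tested were called (19.4% higher, 18.9% lower). At day 10 against day 0, 6 were higher and 1 lower, beside 63.8% of all genes called (32.5% higher, 31.3% lower). The median change of the 10 was 1.58 against 0.01 for all genes tested. The 10 were chosen with earlier results of these data known. They include TNFSF10 and TNFRSF9, which passed the filter in 2 and 3 libraries, mostly of day 10. This median and the counts therefore lend no support to a shift of the group. From day 4 to day 10, 6 were higher and 1 lower (44.1% of all genes called, 21.7% higher and 22.4% lower), but the rises of TNFRSF10D (0.54, adjusted p = 0.0456) and TNFRSF9 (1.88, adjusted p = 0.0443) were lost under several alternatives. Leaving out replicate 2 of day 4 or of day 10 brought this count to 4. TNFSF4, the gene that fell at each shScr step, lost its day 4 to day 10 call without replicate 2 of day 4 or either day 10 library.

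In shIL1R cells, 3 genes were called higher and 1 lower at day 4 against day 0 (40.4% of all genes called, 20.1% higher and 20.3% lower). At day 10 against day 0, 6 were called higher and 1 lower (60.3%, with 30.0% higher and 30.3% lower). The genes called higher at day 10 were the same 6 in both genotypes, TNFSF15, TNFRSF10A, TNFRSF10B, TNFRSF10C, TNFRSF10D and TNFRSF1B. The gene called lower was TNFSF4 in shScr and TNFRSF11B in shIL1R. The median change by day 10 was 1.03, with the same limit as the median in shScr cells. From day 4 to day 10, 5 were higher and 0 lower (35.9% of all genes called, 17.6% higher and 18.3% lower). Among the 5 was TNFSF10, which has few reads and was tested only through its high day 10 shIL1R values. Its call therefore lends no support to a difference.

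**Figure D3:**
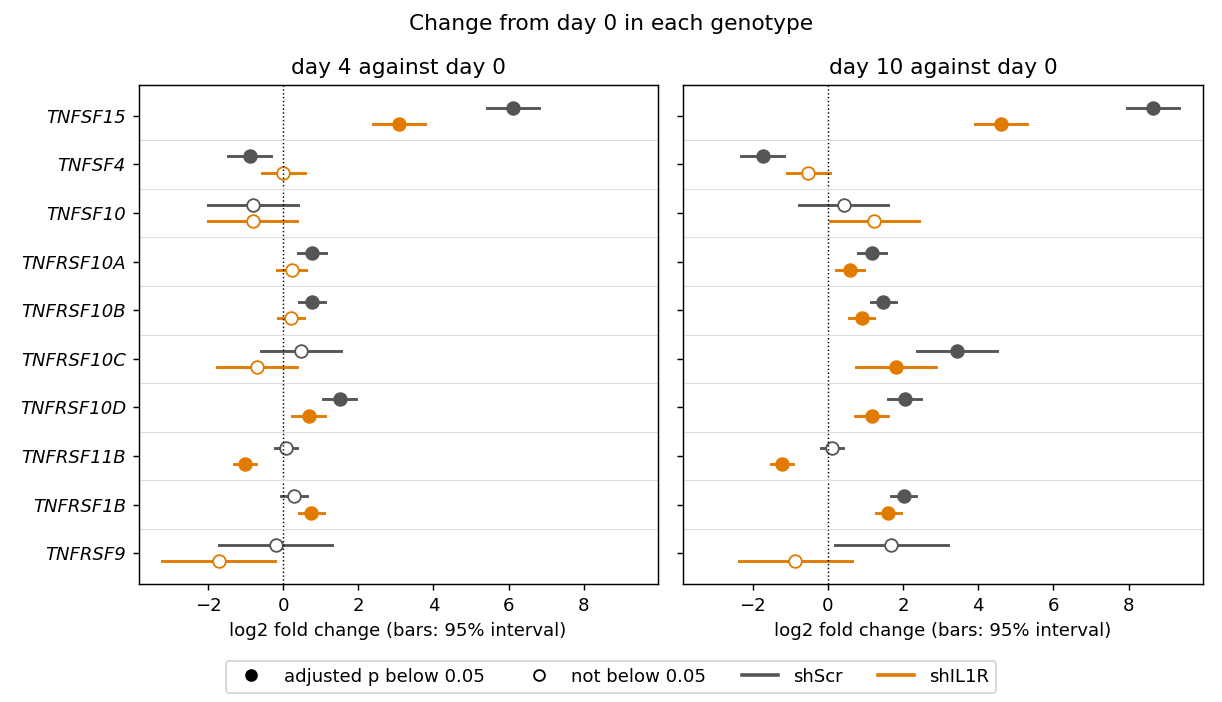
Fitted log2 change from day 0 to day 4 (left) and to day 10 (right) of each gene in shScr and shIL1R cells, with bars for the 95% interval and filled points where the limma adjusted p is below 0.05. TNFSF15 moves most in both genotypes, and at day 10 only TNFRSF11B is called lower in shIL1R cells, at -1.22.

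The study set the hairpin against the scramble control on each day. In growing cells, TNFRSF11B was 2.05-fold higher with shIL1R (log2 1.03 ± 0.13, adjusted p = 0.0162). It was the 1 gene of the 10 called at day 0, where 0.0646% of all genes tested were called (0.0287% higher, 0.0359% lower). The call was lost without either shScr day 0 library (adjusted p = 0.0573 and 0.254) or without replicate 2 of shIL1R (0.227). TNFSF15 was also higher in both shIL1R libraries at day 0, 2.16-fold by mean, and missed the adjusted threshold (1.09 ± 0.32, adjusted p = 0.313). Of the endothelial markers, TEK was also higher in shIL1R at day 0, at 2483 and 3249 against 1644 and 1775 normalized counts, whereas TIE1 was lower (14.6 and 27.8 against 32.2 and 32.5). Their part in these values was not tested.

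At day 4, TNFSF15 was 3.85-fold lower with shIL1R (-1.94 ± 0.32, adjusted p = 0.0434), the 1 gene of the 10 called where 0.280% of all genes were (0.0431% higher, 0.237% lower). The call was lost in 9 of the 12 fits that left out 1 library, with adjusted p up to 0.427 without replicate 2 of shIL1R day 4, while the difference stayed between -2.15 and -1.74. TNFRSF10A (-0.70, adjusted p = 0.0883), TNFRSF10D (-0.83, adjusted p = 0.0869) and TNFRSF10B (-0.45, adjusted p = 0.166) had lower means with shIL1R and did not pass the threshold. HRAS counts at day 4 were 19278 and 15523 with shIL1R against 29774 and 23750 (-0.62, adjusted p = 0.117), and the part of Ras level in these values was not tested.

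At day 10, 4 of the 10 were called lower with shIL1R and 1 higher, beside 9.21% of all genes called (4.85% lower, 4.37% higher). TNFSF15 was 7.12-fold lower (-2.95 ± 0.32, adjusted p = 0.00106), TNFRSF10D 1.83-fold (-0.88 ± 0.20, adjusted p = 0.0233), TNFRSF10A 1.67-fold (-0.74 ± 0.17, adjusted p = 0.0255) and TNFRSF1B 1.47-fold (-0.56 ± 0.16, adjusted p = 0.0471). TNFSF4 was 2.02-fold higher (0.96 ± 0.26, adjusted p = 0.0447). TNFRSF10B had a lower mean with shIL1R without passing the threshold (-0.47 ± 0.15, adjusted p = 0.0772). TNFRSF10C did not differ beyond its spread (-0.73 ± 0.48, adjusted p = 0.356).

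These day 10 calls rested unevenly on single libraries. Without replicate 2 of shIL1R day 10, the library that stood apart, or without replicate 2 of shScr day 10, only TNFSF15 kept its call. Without the former, TNFSF15 differed by -2.32, TNFRSF10D by -0.63 (adjusted p = 0.101), TNFRSF10A by -0.58 (adjusted p = 0.105), TNFRSF1B by -0.49 (adjusted p = 0.143) and TNFSF4 by 0.55 (adjusted p = 0.199). TNFSF4 and TNFRSF1B each lost the call in 9 of the 12 fits that left out 1 library. TNFSF15 kept its call in every one, at adjusted p up to 0.0217. Without replicate 1 of shIL1R day 10 the count rose to 7.

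**Figure D4:**
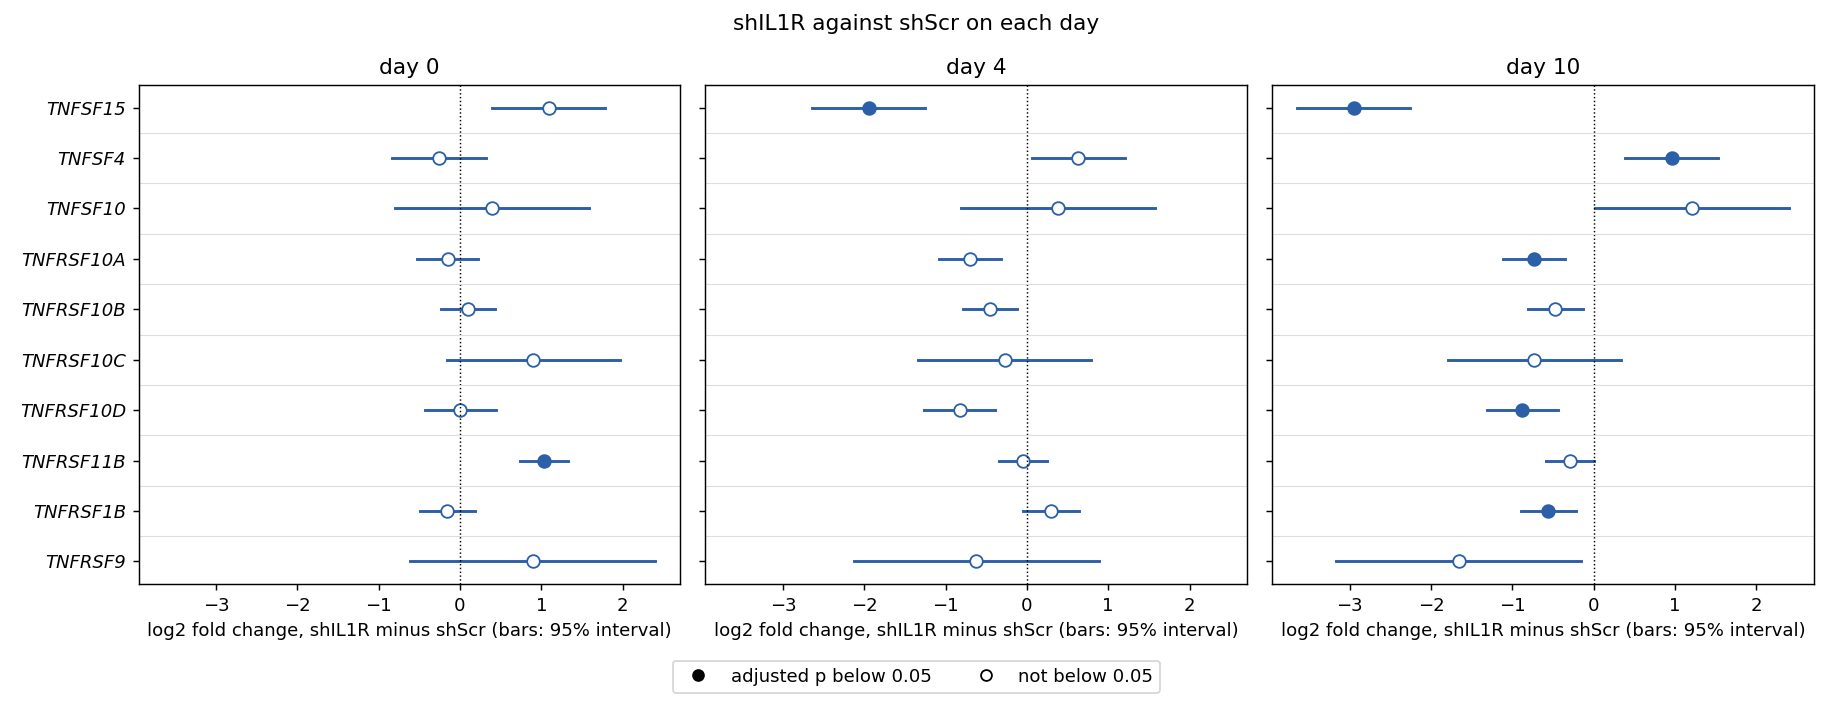
Fitted log2 difference of shIL1R minus shScr for each gene at day 0, day 4 and day 10, with bars for the 95% interval and filled points where the limma adjusted p is below 0.05. TNFRSF11B is the called point at day 0 (1.03), and TNFSF15 moves from 1.09 at day 0 to -2.95 at day 10.

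Whether the change from day 0 differed between the genotypes was tested as an interaction of genotype and day. Ras, tamoxifen and time in culture go together over the days, so their parts cannot be told apart. For the change to day 10, TNFSF15 rose less with shIL1R by 4.05 ± 0.45 on the log2 scale (-4.05, adjusted p = 0.00204). TNFRSF11B changed by -1.33 ± 0.19 relative to shScr (adjusted p = 0.00847). These were the 2 genes of the 10 called, where 2.41% of all genes were (1.54% lower, 0.876% higher). The TNFRSF11B call was lost without replicate 2 of shScr day 0 (-1.20, adjusted p = 0.0521). The differences of TNFSF4 (1.21, adjusted p = 0.112) and TNFRSF10D (-0.88, adjusted p = 0.127) did not pass. For the change to day 4, limma called 0 of the 10, beside 0.0287% of all genes called. TNFSF15 was nearest (-3.04 ± 0.45, adjusted p = 0.0601). DESeq2 on the recovered reads called 2. The interaction, the genotype comparison and the day comparisons share libraries, so their values are not independent of each other.

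Per kilobase of annotated exon, TNFSF15 moved from rank 8 of the 10 genes in growing shScr cells to rank 3 in senescent ones. In growing shScr cells the mean normalized counts per kb were 1484 for TNFRSF10D, 964 for TNFRSF11B, 919 for TNFRSF10B, 97.8 for TNFRSF1B, 85.4 for TNFSF4, 36.1 for TNFRSF10A, 5.32 for TNFRSF10C, 4.94 for TNFSF15, 2.05 for TNFSF10 and 0.580 for TNFRSF9. TNFRSF11B and TNFRSF10B overlapped between libraries there, as did TNFRSF10C and TNFSF15. In senescent shScr cells the order was TNFRSF10D at 6213, TNFRSF10B at 2550, TNFSF15 at 2041, TNFRSF11B at 1033, TNFRSF1B at 396, TNFRSF10A at 81.6, TNFRSF10C at 63.7, TNFSF4 at 25.4, TNFSF10 at 2.85 and TNFRSF9 at 2.20. In senescent shIL1R cells TNFSF15 stood at 287 per kb and rank 4, above TNFRSF1B at 269. The TNFSF15 libraries (169 and 404) lay on both sides of those of TNFRSF1B (257 and 281), so these neighbours did not differ beyond their spread. Lengths are the merged exons of each gene in GENCODE 29, which need not be those of the counting.

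The genes whose profile over the 12 libraries was most like each member were taken by Pearson correlation of log2(normalized count + 1), among all genes tested. The 12 libraries share the day effect, so high values are common and describe likeness only. For TNFSF15 they were MAFF (0.991), RAB3A (0.988) and SNCB (0.986), and for TNFRSF10D AKIRIN1 (0.989), RRM2B (0.988) and IL1B (0.981). For TNFRSF10A they were FUBP3 (0.979), OSBPL8 (0.966) and CSF3 (0.964), for TNFRSF10B ASPHD1 (0.990), NCKIPSD (0.985) and DGAT2 (0.985), and for TNFRSF10C HAPLN3 (0.984), HID1 (0.979) and PRNP (0.973). TNFRSF1B was closest to LOC105369187 (0.988), COPE (0.987) and CEP250 (0.985), and TNFSF4 to LUZP2 (0.975), LOC100129034 (0.971) and PRSS12 (0.970). TNFRSF11B had the lowest best match, SDC2 (0.904), then TMEM45A (0.890) and KLHDC1 (0.887). The 2 genes with few reads matched KCTD4 (0.930), ISOC1 (0.929) and HELQ (0.928) for TNFRSF9, and SLC25A42 (0.955), ZC3H10 (0.946) and PCBP3 (0.943) for TNFSF10. Between members, TNFSF15 and TNFRSF10D correlated at 0.97, TNFRSF10B and TNFRSF10D at 0.95, and TNFSF4 ran against TNFRSF10B at -0.94.

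The other ligands of the superfamily were mostly little read. Of 15, 7 passed the filter. TNFSF8, TNFSF11 and TNFSF18 passed only through day 10 libraries, in which they were high, so no count or median of the ligands by day is given. TNFSF9, the ligand of TNFRSF9, went from 9.19 and 15.9 to 152 and 103 normalized counts in shScr cells (3.27 ± 0.49, adjusted p = 0.000154) and from 11.7 and 11.2 to 127 and 68.8 in shIL1R cells (2.93 ± 0.49, adjusted p = 0.000399). In shScr cells TNFSF8 went from 0.919 and 0 at day 0 to 22.4 and 29.4 at day 10. TNFSF11 went from 0 in both libraries to 14.2 and 7.09. They had at most 29 and 12 reads per library. These ligands and TNFSF18 were tested only through their high day 10 values, so their tests lend no support to a difference. TNFSF18 (GITRL) is a ligand known for costimulating T cells. It went from 0.919 and 0.835 normalized counts at day 0 to 15.3 and 12.2 at day 10 in shScr cells. In shIL1R cells it went from 5.39 and 3.44 to 2.40 and 3.39. At day 10, where 9.21% of all genes were called between the genotypes, TNFSF12 (TWEAK) was the 1 ligand called, higher with shIL1R at 366 and 418 against 267 and 209 (0.73 ± 0.15, adjusted p = 0.0167). The call was lost without replicate 2 of shScr or of shIL1R at day 10.

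TNF, LTA and LTB, which lie together in the major histocompatibility complex, are listed at 0 in all 12 libraries. ABCF1, DDX39B and HLA-E, genes of that region active in nearly all cells, are listed at 0 in all 12 as well, and CSNK2B reached 1 read in 1 library. These comparison genes were chosen after their values were seen. A value of 0 for TNF, the ligand of TNFRSF1B, is therefore given only as listed.

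Among 22 other receptors, 10 passed the filter. By day 10, 7 were called higher and 0 lower in shScr cells (median 0.84), where 32.5% of all genes tested were higher and 31.3% lower. In shIL1R cells 8 were higher and 0 lower (median 0.59), beside 30.0% and 30.3% of all genes. Both counts and both medians include TNFRSF14, which passed the filter only through day 4 and day 10 libraries. LTBR, the lymphotoxin beta receptor, rose from 2580 and 2516 to 5926 and 6008 in shScr cells (1.23 ± 0.08, adjusted p = 2.48e-07) and from 2671 and 2703 to 6472 and 6005 in shIL1R cells (1.21 ± 0.08, adjusted p = 4.14e-07). TNFRSF14 (HVEM), read 8 to 22 times per library, rose by 1.33 in shScr and 1.48 in shIL1R cells, and lost the shScr call without replicate 1 of day 10 (adjusted p = 0.0609). TNFRSF25, the receptor of TNFSF15, rose from 64.7 and 41.3 to 132 and 120 in shIL1R cells (1.26 ± 0.32, adjusted p = 0.00556, and 0.0593 without replicate 2 of day 0). In shScr cells it went from 71.7 and 50.1 to 125 and 91.1 (0.82 ± 0.32, adjusted p = 0.0426), a call lost without replicate 2 of day 0 or replicate 1 of day 10 (0.248 and 0.227). TNFRSF6B, a soluble decoy for TNFSF15, and TNFRSF4, the receptor of TNFSF4, had at most 6 reads and 1 read in any library and were not tested. Between the genotypes at day 10, RELT was lower (-0.67, adjusted p = 0.0359) and TNFRSF1A, the death-domain receptor of TNF, higher (0.35, adjusted p = 0.0163) with shIL1R. The RELT call was lost in 9 of the 12 fits that left out 1 library, with -0.39 without replicate 2 of shIL1R day 10 (adjusted p = 0.146), and the TNFRSF1A call without replicate 2 of shScr day 10 (0.110). The shScr count of 7 fell to 4 without replicate 1 of shScr day 10, and the shIL1R count of 8 fell to 5 without replicate 2 of day 0.

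All 13 genes of the death-signalling list were tested, and in shScr cells by day 10, 6 were higher and 2 lower (median 0.32), a called share near the 63.8% of all genes. BID, which carries the caspase-8 signal to mitochondria, rose from 981 and 1043 to 2686 and 2815 (1.44 ± 0.10, adjusted p = 4.23e-07). TRADD, an adaptor of TNFR1, rose by 1.05 (adjusted p = 4.87e-05), and RIPK3, a kinase of necroptosis, by 1.22 from few reads (adjusted p = 0.0151, lost without replicate 2 of day 0 or replicate 1 of day 10). FADD and CASP8 encode the adaptor and the initiator caspase that the TRAIL death receptors recruit. They were the 2 genes called lower, FADD (1441 and 1532 to 924 and 879, log2 -0.72, adjusted p = 0.000447) and CASP8 (280 and 323 to 196 and 200, log2 -0.60, adjusted p = 0.0237). The CASP8 call was lost without replicate 2 of day 0 or either day 10 library (adjusted p up to 0.135). In shIL1R cells 4 were higher and 3 lower (median 0.08), beside 60.3% of all genes called, with CASP8 at -0.97 and CASP10 at -1.66. CASP10 lost its call without replicate 2 of day 0 or replicate 1 of day 10 (adjusted p = 0.0607 and 0.0532). This count fell to 4 without replicate 1 of day 0. At day 10, BID (-0.63, adjusted p = 0.00532) and XIAP, an inhibitor of caspases (-0.48, adjusted p = 0.0255), were lower with shIL1R and 0 were higher, beside 4.85% and 4.37% of all genes. Both lost the call without replicate 2 of shScr, and XIAP also without replicate 2 of shIL1R.

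Of the 13 TRAF and NF-kB genes, 6 were higher and 3 lower in shScr cells by day 10 (median 0.28), beside 63.8% of all genes called. In shIL1R cells 2 were higher and 4 lower (median -0.08), beside 60.3%. TNFAIP3 (A20), an NF-kB feedback inhibitor, went from 293 and 254 to 2437 and 2968 in shScr cells (3.30 ± 0.68, adjusted p = 0.00140). BIRC3 (cIAP2), an NF-kB target that binds TRAF2, went from 500 and 512 to 2026 and 2179 (2.05 ± 0.54, adjusted p = 0.00646), whereas its paralog BIRC2 was called lower (-0.87). At day 10, BIRC3 stood at 739 and 163 with shIL1R (-2.60 ± 0.54 against shScr, adjusted p = 0.0171). Without replicate 2 of shIL1R the BIRC3 difference was -1.51 (adjusted p = 0.0359), and its call was lost without either shScr day 10 library (0.0527 and 0.138). TRAF1, another NF-kB target, stood at 102 and 88.0 with shIL1R against 243 and 184 (-1.15 ± 0.20, adjusted p = 0.00744). MAP3K14 (NIK), the kinase of the alternative NF-kB route, was the 1 gene higher with shIL1R, at 131 and 181 against 88.5 and 84.1 (0.83 ± 0.19, adjusted p = 0.0261), a call lost without either shScr day 10 library or replicate 2 of shIL1R (up to 0.173). Of the 13, 4 were lower and 1 higher, beside 4.85% and 4.37% of all genes, and the count of 5 fell to 2 without replicate 2 of shScr day 10. Fitted on the compared groups alone, the day 10 genotype comparison called 0 genes of any of these 4 lists.

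**Figure D5:**
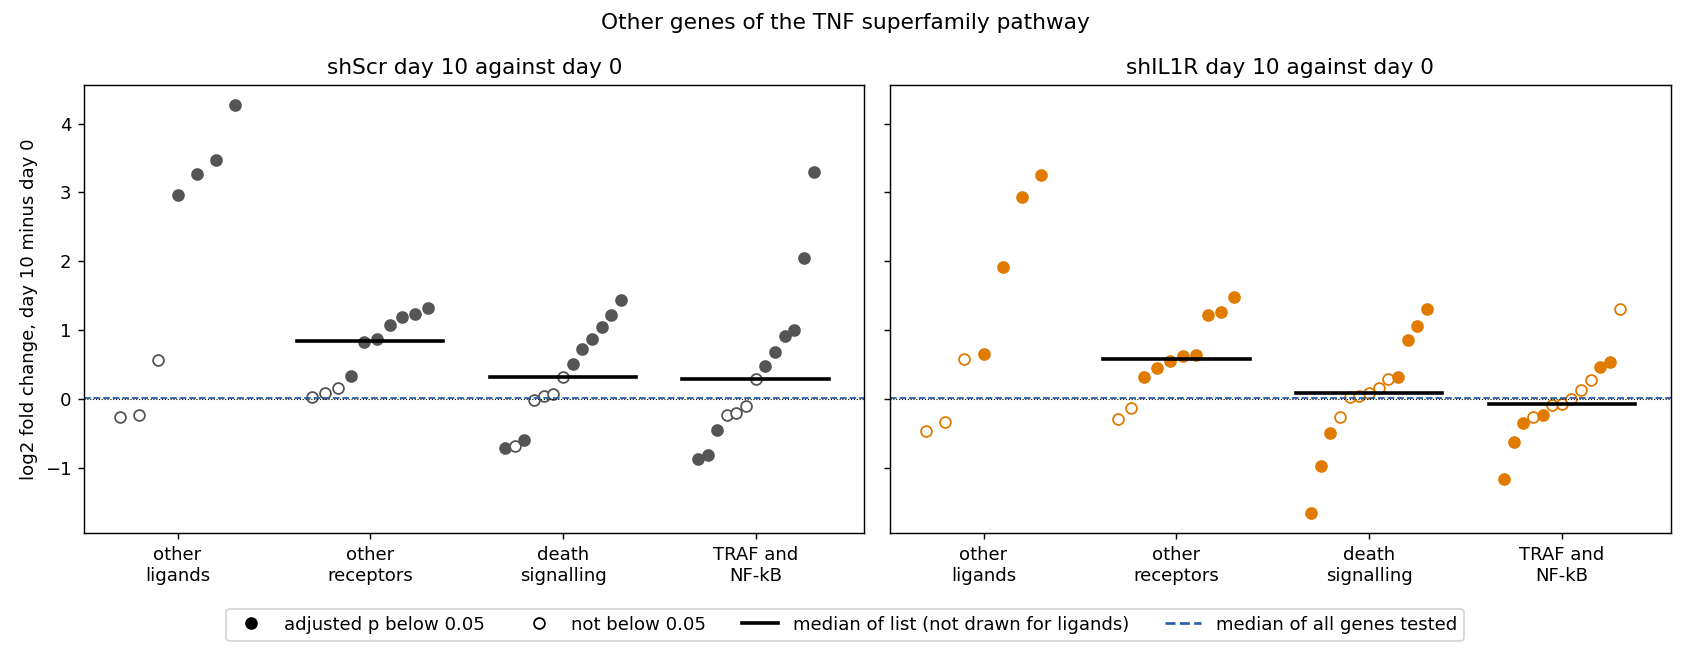
Fitted log2 change from day 0 to day 10 of the tested genes of 4 lists (other ligands, other receptors, death signalling, TRAF and NF-kB signalling) in shScr (left) and shIL1R cells (right), 1 point per gene, filled where the limma adjusted p is below 0.05, with bars at the median of each list but the ligands and a dashed line at the median of all genes. The receptor median lies at 0.84 in shScr cells and 0.59 in shIL1R cells. It includes TNFRSF14, which passed the filter only through day 4 and day 10 libraries. TNFSF8, TNFSF11 and TNFSF18 passed only through day 10 libraries, so their points lend no support to a difference.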

How the data were processed

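RNA of 12 libraries in 6 groups was analysed from 1 deposited table of normalized counts (a signal value per gene and library). Per the submitters' processing notes, the authors used TopHat, HTSeq, DESeq2 and the hg19 build; versions, annotation and strand setting are not given in the sources used here, and the kit was strand-specific per the labels. Dividing each column by its smallest value above 0 gave whole reads for 100% of values (tolerance 0.001); these recovered reads served alternatives only. The 13924 genes reaching 10 normalized counts in 2 or more libraries were fitted with limma 3.58.1 (R 4.3.3) as log2(normalized count + 1), with 6 group means, a trended prior (residual df 6, prior df 4.98), 11 contrasts and Benjamini-Hochberg adjustment over all genes, called below 0.05. A fold is of group means of normalized counts, and a log2 change on this scale understates changes of low genes. Alternatives were pseudocounts, filters, TMM scaling, the compared groups alone, a replicate block, recovered reads tested with DESeq2 1.42.0 or edgeR 4.0.16, and leaving out each library. On simulated data for shScr day 10 against day 0 (13924 genes), 81% of 2-fold and 95% of 4-fold changes were recovered with 5 false calls. That simulation changed 100 genes at each fold and gave each gene the same spread in all groups. In the data 63.8% of all genes were called in this comparison, so these rates need not hold here or in the other comparisons. Named were the 10 genes, IL1R1 and HRAS as checks, up to 3 called genes of each list per comparison with the largest change, and 3 nearest profiles per gene; other genes were named after their values were seen. The members and lists were chosen with earlier results of these data known. Depth was 24140324 to 30127727 reads; counts near 3 reads are imprecise.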

Additional observations from a re-analysis of the deposited data

Results flagged for a closer look

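The response of TNFSF15 to day 10 differed between the genotypes by a test of the difference itself: the interaction of genotype and day was -4.05 on the log2 scale (standard error 0.45, limma adjusted p = 0.00204), with a rise of 8.64 in shScr and 4.60 in shIL1R cells. The response of TNFRSF11B differed in the same test by -1.33 (standard error 0.19, adjusted p = 0.00847), with a change of 0.10 in shScr and -1.22 in shIL1R cells. For TNFSF15, shIL1R minus shScr was 1.09 at day 0 (limma adjusted p = 0.313) and -2.95 at day 10 (limma adjusted p = 0.00106). Its interaction therefore also holds the day 0 difference, which was not called. For TNFRSF11B, shIL1R minus shScr was 1.03 at day 0, before Ras, and -0.30 at day 10 (limma adjusted p = 0.179). Without replicate 2 of shScr day 0 its interaction was -1.20, and the call was lost. HRAS counts were lower with shIL1R at day 10 (-0.74, adjusted p = 0.0257), and their part in these differences was not tested. Groups of 2 libraries were not screened for single outlying values.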

How the results depend on the processing

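Of 2288 member values under alternatives, 2130 kept direction and side of the threshold, 87 lost the call, 47 gained one and 24 changed sign, all 24 in values that were not called. Where a count of called genes moved by over 1.5 times, the cause was not tested unless fewer samples or another set of tested genes made it. With the compared groups alone the counts were 2 (from 5) for shIL1R day 10 against day 4, 0 (from 1) for the genotypes at day 0 and at day 4, 1 (from 5) for the genotypes at day 10 and 1 (from 0) for the interaction to day 4. Without a filter the genotype counts were 0 at day 4 and 3 at day 10, and with a filter of 50 the day 4 count was 0. DESeq2 gave 3 for the genotypes at day 4, 2 for the interaction to day 4 and 4 for the interaction to day 10. Leaving out 1 library gave 4 to 5 called genes in shScr by day 4, 7 to 8 by day 10 and 4 to 7 between these, 3 to 5, 6 to 8 and 5 to 7 in shIL1R, 0 to 2, 0 to 3 and 1 to 7 for the genotypes at days 0, 4 and 10, and 0 to 2 and 1 to 7 for the interactions to days 4 and 10. The interaction count of 2 at day 10 became 1 without replicate 2 of shScr day 0 and 7 without replicate 1 of shIL1R day 10. The libraries share only a number: 4 of 15 correlations between same-numbered deviations were above 0.1 (-0.10 to 0.23). The fit with a replicate block called 5 genes instead of 7 in shScr day 10 against day 4, without TNFRSF10D (limma adjusted p = 0.0531) and TNFRSF9 (0.0525), and gave the main count in the other 10 comparisons. TNFSF10's interaction to day 4 changed sign to 0.034 with a pseudocount of 0.5, 0.025 with edgeR and 0.054 with DESeq2, and ran from -0.50 to 0.48 when 1 library was left out. Other uncalled values that changed sign when 1 library was left out ran as follows. In shScr day 4 against day 0, TNFRSF11B ran from -0.066 to 0.20 and TNFRSF9 from -0.43 to 0.034. In shScr day 10 against day 0, TNFSF10 ran from -0.028 to 0.87 and TNFRSF11B from -0.029 to 0.24, and against day 4 TNFRSF11B from -0.042 to 0.11. In shIL1R day 4 against day 0, TNFSF4 ran from -0.34 to 0.35 and TNFRSF10B from -0.046 to 0.47. TNFRSF9 in shIL1R day 10 ran from -1.94 to 0.20 against day 0 and from -0.23 to 1.91 against day 4. Between the genotypes at day 0, TNFSF10 ran from -0.054 to 0.84 and TNFRSF10D from -0.019 to 0.024. At day 4, TNFSF10 ran from -0.10 to 0.87, TNFRSF10C from -0.87 to 0.33 and TNFRSF11B from -0.15 to 0.045. TMM scaling moved the median of all genes by less than 0.1 in every comparison. Depth limits TNFSF10 and TNFRSF9, with 14 reads or fewer per library.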
